A study of Mus musculus with 2 samples.

Results

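The aquaporins of fat, vessel and epithelium were read in mouse mammary tumors as every probe set on the array that is annotated to a single gene among Aqp1, Aqp3, Aqp4, Aqp5, Aqp7, Aqp8 and Aqp9, by its current or an older symbol. This gave 12 probe sets for all 7 genes, of 12393 genes with a probe set of their own, out of 22626 probe sets that are not array controls. A probe set is a group of short oligonucleotides that together read part of a transcript. The tumors came from female FVB wild-type mice that received 15 mg medroxyprogesterone acetate from the age of 5 weeks, a long-acting progestin, and then DMBA, a carcinogenic hydrocarbon, at 1 mg by gavage in each of 4 weekly doses. From the day after the last dose, the GW9662 group was fed chow with 0.1% GW9662, an irreversible PPARγ antagonist, and the control group standard chow. Each diet is represented by 1 array, hybridized with a pool of RNA from 5 mice. Both groups carry the progestin and the carcinogen and differ by diet, and the pools come from different mice. In the paper's histology, adenocarcinomas made up a larger percentage of tumors with GW9662. No test between the diets was possible with 1 array each. Every difference is therefore described by its size. The labels call the material mammary tumor, and the luminal epithelial keratins Krt8, Krt18 and Krt19 had signals between 8018 and 10018 on both arrays. Fat, muscle and milk genes were also read, and their signals were lower on the GW9662 array than on the control array.

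Aquaporins are membrane channels built of helices that cross the bilayer and assembled as tetramers, each subunit with its own pore. Some pass mainly water (Aqp1, Aqp4, Aqp5, Aqp8), whereas the aquaglyceroporins (Aqp3, Aqp7, Aqp9) also pass glycerol. Each is known from particular cells. Aqp7 lets glycerol leave fat cells during lipolysis and is a PPARγ target there, Aqp1 is the water channel of capillary endothelium and red cells, Aqp5 sits in the apical membrane of gland epithelium, Aqp3 in the basolateral membrane of epithelia and in keratinocytes, Aqp4 in astrocytes and fast muscle fibers, Aqp8 in epithelia of gut, liver and pancreas, and Aqp9 in hepatocytes and leukocytes.

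Because GW9662 acts on PPARγ, the 250 bases before the annotated start of the 3 aquaporins that were read clearly on at least 1 array are shown, from RefSeq on GRCm38.p6, 5′ to 3′ on the strand of the gene. Capitals mark matches to AGGTCANAGGTCA, the direct repeat bound by PPAR and its partner RXR, on either strand and with up to 2 mismatches outside the N. Aqp7 is at chr4:41047963-41048212 on the minus strand, Aqp1 at chr6:55336049-55336298 on the plus strand and Aqp5 at chr15:99590778-99591027 on the plus strand.
Aqp7: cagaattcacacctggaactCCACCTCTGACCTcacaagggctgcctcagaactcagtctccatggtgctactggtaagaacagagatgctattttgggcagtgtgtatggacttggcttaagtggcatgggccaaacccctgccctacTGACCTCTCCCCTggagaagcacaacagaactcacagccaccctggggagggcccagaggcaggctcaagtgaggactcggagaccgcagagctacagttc
Aqp1: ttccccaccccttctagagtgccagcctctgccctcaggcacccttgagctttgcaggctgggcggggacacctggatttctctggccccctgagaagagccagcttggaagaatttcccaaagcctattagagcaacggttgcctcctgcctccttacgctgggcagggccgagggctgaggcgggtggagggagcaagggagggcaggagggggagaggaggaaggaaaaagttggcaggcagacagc
Aqp5: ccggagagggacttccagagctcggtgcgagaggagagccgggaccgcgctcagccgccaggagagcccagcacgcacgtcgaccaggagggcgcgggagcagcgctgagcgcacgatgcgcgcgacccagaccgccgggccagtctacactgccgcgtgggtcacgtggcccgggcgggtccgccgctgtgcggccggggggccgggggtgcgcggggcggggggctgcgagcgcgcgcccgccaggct

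The Aqp7 stretch held 2 matches, both on the opposite strand. Read on that strand, they are AGGTCAGAGGTGG from -230 to -218 and AGGGGAGAGGTCA from -101 to -89, counting the base before the start as -1. Each holds an exact AGGTCA. An earlier Aqp7 start is also annotated, and its upstream stretch overlaps this one and holds the first of these matches. Such a match was found in 3.24% of 32851 mouse promoter stretches of the same length. The stretches of Aqp1, Aqp3, Aqp5, Aqp8 and Aqp9 held neither a match nor an exact AGGTCA, which was in 14.0% of all stretches. Promoter sequence was matched for 6 of the 7 genes, not for Aqp4. A match is a description of letters and was not tested for binding.

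Of the 7 aquaporins, Aqp1, Aqp5 and Aqp7 were read above a signal of 100 on at least 1 array, and the signals of the other 4 genes lay near background. Probe sets for olfactory, vomeronasal and taste receptors, 72 in all, served as background because a mammary tumor should not express them. The brightest of these had a signal of 25.8 on the GW9662 array and 25.2 on the control array. On both arrays, 7 of the 12 aquaporin probe sets were at or below that level, against 24.6% of all probe sets. These were both probe sets of Aqp4, both of Aqp9, the single probe set of Aqp8 and the dimmer pair for Aqp3. Values in this range have no order, so no fold was read from them. The bound on a fold was set at a signal of 100, which 9 of the 12 did not reach on either array, against 41.4% of all probe sets. The size rule asked for signals that differed by 3-fold or more with the brighter at 300 or above, the thresholds of the study's methods. By this rule 1 of the 12 probe sets was lower, that of Aqp1, against 1.05% of all probe sets, and 0 were higher, against 0.164%. With the brighter signal at 100 or above, 2 were lower, against 1.64% of all probe sets. The added probe set was from Aqp7, with a GW9662 signal within background. Signals of different probe sets are not on a common scale of transcript amount.

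**Figure D1:**
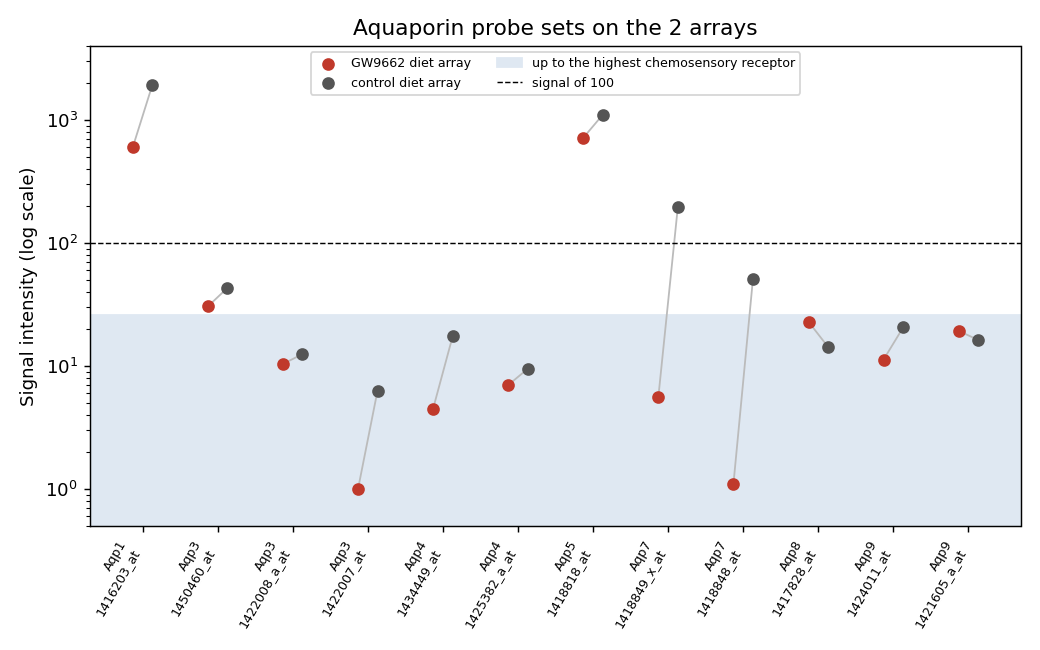
Signal intensity on a log scale for the 12 aquaporin probe sets, with the GW9662 diet array in red and the control diet array in gray, 1 array each and no error bars. The shaded band runs up to 25.8, the brightest chemosensory receptor, and the dashed line marks 100. Aqp1 and Aqp5 lie above the line on both arrays, and Aqp7 lies inside the band on the GW9662 array and above it on the control array.

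Aqp7, the glycerol channel of fat cells, was within background in GW9662 tumors and above it in control tumors. At probe set 1418849_x_at its signal was 5.6 on the GW9662 array and 198 on the control array, at least 1.98-fold lower when the dimmer signal is set to 100. At probe set 1418848_at it was 1.1 on the GW9662 array and 51.2 on the control array, below 100 on both, so no fold was given. Both probe sets were thus inside the chemosensory range on the GW9662 array and above it on the control array. Of 12913 probe sets with a control signal of at least 100, 61 (0.472%) were within background on the GW9662 array, and the brighter Aqp7 probe set was among these. The log2 ratio of the deposited signals was -5.14, a value that rests on a GW9662 signal with no order. Both probe sets were designed on the same transcript record, and the x in the name of the brighter marks probes that may also match other transcripts. Aqp7 and Aqp1 are on the study's own list of lowered metabolic genes, so their direction is not independent evidence. The signals printed in that list are not those deposited and were not used here.

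Fat cell genes were lower together with Aqp7. Of 14 adipocyte markers, 12 had a probe set of a single gene, and all 12 were lower in GW9662 tumors by 3-fold or more, against 1.97% of the 8206 genes whose signal reached 100 on 1 or both arrays. Their summed signal was 7538 on the GW9662 array and 60923 on the control array. The median log2 ratio of GW9662 over control was -4.13, and -3.34 with signals below 100 set to 100, against 0.02 over all 8206 genes. Of these markers, Adipoq, Lep, Retn, Fabp4, Lipe, Pparg, Adig, Cd36 and Lpl are also on the study's own list of lowered genes. Their direction is therefore not independent evidence. Cidec, which fuses lipid droplets, had 44.2 on the GW9662 array and 1950 on the control array, at least 19.5-fold lower. Retn, the adipokine resistin, had 128 on the GW9662 array and 3668 on the control array, 28.6-fold lower. Fabp4, the fatty acid carrier of fat cells, was closest to level at the brightest of its 4 probe sets. That probe set had 3097 in GW9662 and 13670 in control tumors. Dimmer Fabp4 probe sets had 18 in GW9662 and 374.9 in control tumors, and 3 in GW9662 and 131.3 in control tumors. Both of these were within background on the GW9662 array, and the remaining probe set is not given here. Pparg, the target of GW9662, had 52.0 on the GW9662 array and 713 on the control array. In a bulk sample, fewer cells of a type and less RNA per cell cannot be told apart.

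Genes that make, store or release glycerol were lower too. Of 14 listed, 11 had a probe set of a single gene, and all 11 were lower in GW9662 tumors, against 47.5% of the 8206 genes. The difference was 3-fold or more for 7, against 1.97% of the 8206 genes. All 7, with Gpam and Dgat1, are on the study's own list of lowered genes, so these counts are not independent evidence. The median log2 ratio was -2.31, and -1.56 with each gene read at the median over its probe sets. Mgll, which frees glycerol from monoglycerides, had 619 on the GW9662 array and 3069 on the control array, 4.96-fold lower. Pnpla2, the lipase that starts triglyceride breakdown, had 530 in GW9662 and 2565 in control tumors, 4.84-fold lower, and was named after its values were seen. Pck1, which feeds glycerol synthesis in fat, was the lowest with 71.2 on the GW9662 array and 1777 on the control array, at least 17.8-fold. Gpd2, the mitochondrial glycerol phosphate dehydrogenase, was the least changed with 245 in GW9662 and 507 in control tumors, 2.07-fold lower. Lpl, Lipe, Gpd1 and Dgat2 of this list were also past 3-fold, whereas Abhd5, Gpam and Dgat1 were between 2.10-fold and 2.84-fold lower. Lpl and Lipe are among the adipocyte markers as well, so the lists are not separate. The glycerol kinase gene Gk, whose product traps glycerol in cells, was not analysed here.

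Aqp1, the water channel of capillaries and red cells, was the only aquaporin past the threshold. Its single probe set, 1416203_at, had a signal of 599.5 on the GW9662 array and 1916 on the control array, 3.20-fold lower, with a log2 ratio of -1.68. A ratio this low or lower was found in 2.86% of the 8206 genes. The SD of log2 ratios between probe sets of the same gene was 0.36 over 2639 genes, which measures disagreement between probe sets and holds no variation between mice. Aqp1 had no further probe set to compare.

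Endothelial markers were lower as well, but by less. Of 20 markers 19 reached a signal of 100, and all 19 were lower in GW9662 tumors, against 47.5% of all such genes. Of the 19, 1 passed 3-fold, against 1.97%. Their median log2 ratio was -0.71, and their summed signal was 6148 on the GW9662 array and 10002 on the control array. Cldn5, the tight junction protein of endothelium, had 256 on the GW9662 array and 774 on the control array, 3.03-fold lower, the lowest of the list. Plvap, which forms the diaphragms of capillary openings, had 822 on the GW9662 array and 882 on the control array, and Vwf, the clotting factor carrier of endothelium, had 532 in GW9662 and 553.5 in control tumors. Esam, an adhesion molecule of endothelial junctions, had 531 on the GW9662 array and 1055 on the control array. The ratio of Aqp1 lay below that of each of the 19 markers and above that of each of the 12 adipocyte markers. The nearest endothelial log2 ratios were those of Cldn5 (-1.60), Ptprb (-1.51) and Pecam1 (-1.45), against -1.68 for Aqp1. These gaps are smaller than the SD of 0.36 between probe sets, so the order among these genes is not known. The other endothelial markers lay further above Aqp1. The difference of Aqp1 from the endothelial median was -0.96 on the log2 scale. Erg, a transcription factor of endothelium, was within background on both arrays (16.5 in GW9662 and 4.7 in control tumors).

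Red cell genes gave little to set beside Aqp1. Of 8 listed, 6 had a probe set of a single gene, and only Alas2, the first enzyme of heme synthesis in red cells, reached a signal of 100, with 48.5 on the GW9662 array and 240 on the control array, at least 2.40-fold lower. Slc4a1, the anion exchanger of the red cell membrane, had 24.0 in GW9662 and 27.0 in control tumors, and the single-gene probe set of the alpha globin Hba-a1 had 1.8 in GW9662 and 2.1 in control tumors. Hbb-b2, a beta globin read after the lists were drawn up, had 144 on the GW9662 array and 165 on the control array at its brighter probe set and 89.7 in GW9662 and 63.1 in control tumors at the dimmer. Globin probe sets with several gene names were not read. Adipocyte, endothelial and muscle markers and Alas2 were lower alongside Aqp1, and their part in its lower signal was not tested.

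**Figure D2:**
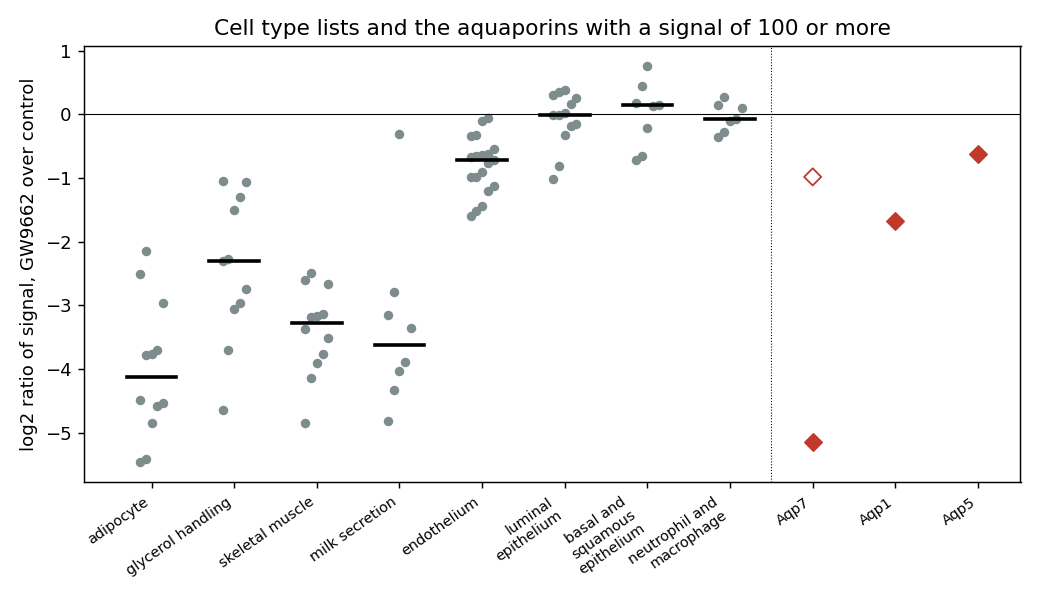
Log2 ratio of signal, GW9662 over control, for genes whose brighter signal reached 100 (gray points) by list, with the list median as a bar, and for 3 aquaporins (red diamonds). The open diamond gives Aqp7 with its GW9662 signal set to 100. Aqp1 at -1.68 lies below every endothelial point, the nearest being Cldn5 at -1.60. Aqp5 at -0.62 lies below the luminal median of -0.01 and above the milk secretion median of -3.62.

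Aqp5, the water channel of the apical membrane of gland cells, was bright on both arrays and somewhat lower in GW9662 tumors. Its single probe set, 1418818_at, had a signal of 717 on the GW9662 array and 1104 on the control array, 1.54-fold lower, with a log2 ratio of -0.62. It did not reach 3-fold, and 10.7% of the 8206 genes had a ratio this low or lower. The ratio is larger than the SD of 0.36 between probe sets of a gene, but no spread between tumors is known.

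Luminal epithelial markers were nearly level, and milk genes were far lower. In GW9662 tumors 7 of 13 luminal markers were lower and 6 were higher, 0 by 3-fold, and their median log2 ratio was -0.01. Over the 8206 genes, 47.5% were lower and 1.97% were lower by 3-fold or more. Krt8, the keratin of simple epithelium, had 9665 on the GW9662 array and 9496 on the control array, and Cdh1, or E-cadherin, the adhesion protein of epithelial junctions, had 4109 in GW9662 and 3158 in control tumors. The markers lower than Aqp5 in ratio were Elf5, the transcription factor of the milk-producing lineage, with 2040 on the GW9662 array and 4138 on the control array, and Muc1, an apical mucin, with 112 in GW9662 and 196 in control tumors, the last named after its values were seen. The other 11 had higher ratios, and the difference of Aqp5 from the list's median was -0.62 on the log2 scale. Of 8 milk secretion genes, all 8 were lower, against 47.5% of the 8206 genes, and 7 passed 3-fold, against 1.97%. The median log2 ratio of the 8 was -3.62. Wap, the whey acidic protein, had 26.6 on the GW9662 array and 750.0 on the control array, at least 7.50-fold lower. Csn1s1, or alpha-S1-casein, had 609 on the GW9662 array and 9944.5 on the control array, 16.3-fold lower. Csn3, or kappa-casein, which coats casein micelles, was closest to level with 6908 in GW9662 and 8575 in control tumors. Csn3 alone of these had a higher ratio than Aqp5. Whether Aqp5 was read from milk-producing or other epithelial cells was not tested.

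**Figure D3:**
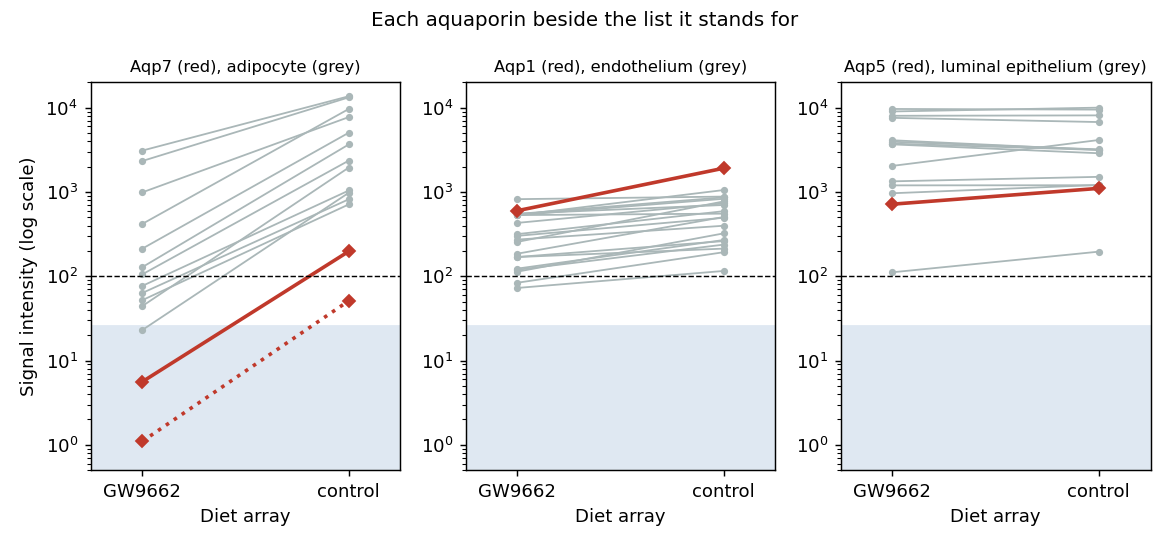
Signal intensity on a log scale on the GW9662 diet array (left of each panel) and the control diet array (right), with Aqp7 beside adipocyte markers, Aqp1 beside endothelial markers and Aqp5 beside luminal epithelial markers. Gray lines are single markers whose brighter signal reached 100, red lines are aquaporin probe sets (dotted for the dimmer Aqp7 probe set), the shaded band runs up to 25.8 and the dashed line marks 100. The slope of Aqp1 is steeper than that of each endothelial marker, though that of Cldn5 is close, and heights are not comparable between probe sets.

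Aqp3, the aquaglyceroporin of basolateral membranes and keratinocytes, was dim on both arrays. Probe set 1450460_at had 30.5 on the GW9662 array and 43.1 on the control array, above the chemosensory range but below 100. Probe set 1422008_a_at had 10.4 in GW9662 and 12.5 in control tumors, and 1422007_at had 1.0 in GW9662 and 6.3 in control tumors, both within background. All 3 were designed on the same transcript record. Basal and squamous epithelial markers were present. Of 13 listed, 8 reached a signal of 100, with 3 lower and 5 higher on the GW9662 array, none by 3-fold, and a median log2 ratio of 0.14. Over all genes that reached 100, 47.5% were lower. Trp63, the transcription factor of basal epithelium, had 1226 on the GW9662 array and 1103 on the control array, and the basal keratins Krt5 (793 in GW9662 and 1256 in control tumors) and Krt14 (619.5 in GW9662 and 1022 in control tumors) had the lowest ratios. The cornified envelope protein involucrin (Ivl) and the spinous layer keratin Krt1 were within background on both arrays, and Krtdap was below 100 (31.4 in GW9662 and 37.2 in control tumors). Other squamous genes of the list were read. Sprr1a had 896 in GW9662 and 662 in control tumors, Krt10 had 328 in GW9662 and 289 in control tumors, and Lor had 107 in GW9662 and 63.1 in control tumors.

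Aqp4, the water channel of astrocytes and fast muscle, stayed within background even where muscle genes were bright. Its probe sets had 4.5 on the GW9662 array and 17.4 on the control array (1434449_at), and 7.0 in GW9662 and 9.5 in control tumors (1425382_a_at). Of 14 skeletal muscle markers 12 reached a signal of 100, and all 12 were lower in GW9662 tumors, against 47.5% of all such genes. Of the 12, 10 were lower by 3-fold or more, against 1.97%. The median log2 ratio of the 12 was -3.27. The summed signal of the 13 with a probe set was 1275 on the GW9662 array and 12421 on the control array. Myh1, a fast myosin heavy chain, had 33.4 on the GW9662 array and 958 on the control array, at least 9.58-fold lower. Myl1, a fast myosin light chain, had 118.5 on the GW9662 array and 1766 on the control array, 14.9-fold lower. Mylpf, the fast regulatory light chain, had 197 in GW9662 and 1104 in control tumors, 5.62-fold lower. Of 5 astrocyte markers, 2 reached a signal of 100 and both were lower, against 47.5% of all such genes. The folate enzyme Aldh1l1 had 80.9 in GW9662 and 443 in control tumors, at least 4.43-fold lower, and the glutamate transporter Slc1a3 had 126 in GW9662 and 430.5 in control tumors, 3.42-fold lower. Slc1a2, the main glutamate transporter of astrocytes, was at 1.5 in GW9662 and 1.1 in control tumors, and Gfap, their intermediate filament, at 27.3 in GW9662 and 9.0 in control tumors.

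Aqp9, the glycerol channel of hepatocytes and leukocytes, was within background beside bright macrophage markers. Probe set 1424011_at had 11.3 on the GW9662 array and 20.6 on the control array, and 1421605_a_at had 19.3 in GW9662 and 16.3 in control tumors. Of 12 neutrophil and macrophage markers, 7 reached a signal of 100, with 4 lower and 3 higher on the GW9662 array and a median log2 ratio of -0.07. Over all genes that reached 100, 47.5% were lower. Lyz2, the lysozyme of macrophages and neutrophils, had 5694.5 on the GW9662 array and 6943 on the control array, and Csf1r, the receptor that macrophages depend on, had 3007 in GW9662 and 3155 in control tumors. Among neutrophil genes, S100a8 had 234 in GW9662 and 301 in control tumors, S100a9 had 174 in GW9662 and 162 in control tumors, and Csf3r had 64.0 in GW9662 and 53.5 in control tumors. Mpo (6.2 in GW9662 and 1.1 in control tumors), Elane (3.5 in GW9662 and 21.4 in control) and Cxcr2 (6.4 in GW9662 and 1.2 in control) were within background. Itgam, also on this list, was within background too, with 25.4 in GW9662 and 21.5 in control tumors.

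Aqp8 had a signal of 22.9 on the GW9662 array and 14.3 on the control array at its single probe set, 1417828_at, within background on both. Hepatocyte genes were mostly dim. Of the 5 read, 2 reached a signal of 100. Albumin (Alb) had 20.8 on the GW9662 array and 129 on the control array, the thyroid hormone carrier Ttr had 26.4 in GW9662 and 31.1 in control tumors, and Fgb, the beta chain of fibrinogen, stood apart with 277 in GW9662 and 3190 in control tumors. Of 5 other aquaporins listed, 2 had a probe set of a single gene, and these were within background too. Aqp2, the water channel of the kidney collecting duct, had 17.0 on the GW9662 array and 2.1 on the control array, and Mip, the lens aquaporin, had 1.7 in GW9662 and 6.8 in control tumors at the first probe set and 0.6 in GW9662 and 9.7 in control tumors at the other. Aqp6, Aqp11 and Aqp12 were not analysed here.

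The genes closest to Aqp1 and Aqp5 in the pair of log2 signals were found over these 2 arrays alone. For Aqp1 they were Me1, or malic enzyme, at a distance of 0.09 with 565 on the GW9662 array and 1958 on the control array, Gpam, the first enzyme of triglyceride synthesis, at 0.28, and the protease Tmprss2 at 0.33. Within a distance of 0.5 lay 13 genes for Aqp1 and 423 for Aqp5. The closest to Aqp5 were Ifnar2, an interferon receptor subunit, Acads, an acyl-CoA dehydrogenase, and the transcription factor Irf1, at distances of 0.04, 0.06 and 0.06. No closest genes are given for Aqp7, whose GW9662 signal was within background. Closeness of signals between probe sets is not closeness of transcript amounts.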

How the data were processed

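The deposited table gives, for each probe set, a linear signal intensity on each array. Per the paper's methods, biotin-labelled cRNA was hybridized to an Affymetrix mouse array, and the authors aligned the grid and made the raw data with GeneChip Operating Software. How signals were computed and scaled, and which probe sets were detected, is not given in the sources used here. Both arrays had a 2% trimmed mean of 500.2, and signals were used as deposited, up to 14841. Precision is limited by there being only 2 arrays. Of 22690 probe sets, 20380 had 1 gene, named through the platform annotation and updated with RefSeq symbols (GRCm38.p6), 691 had several and were not named, and 64 were controls. For list genes, out of 12393 genes, the probe set of highest mean signal was used, and all aquaporin probe sets are given. The members, lists and thresholds were chosen with earlier results of these data known. Named genes were all aquaporins, some of the brightest and of the most and least changed list members, and the 3 nearest in the pair of signals, not given for Aqp7. Other list genes were named after their values were seen. A fold was bounded at a signal of 100, and signals of 0 were read as 0.1. Alternatives covered scaling, low signals, probe set choice, background limits and the counting thresholds. Figures were drawn with matplotlib 3.10.9, and values were computed with pandas 2.3.3 and numpy 2.4.6 under Python 3.11.15.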

Additional observations from a re-analysis of the deposited data

How the results depend on the processing

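Of 58 alternative values for 17 results, 48 stayed within the spread between probe sets or within 1.5 times a count, quantile normalization and centring among them. The exceptions came mostly from low signals. The Aqp7 log2 ratio of -5.14 was -2.16 with 50 added to both signals and -0.98 with signals below 100 set to 100. The floor of 100 gave medians of -3.34 for adipocyte, -3.03 for milk secretion and -2.82 for skeletal muscle genes, and put Aqp5 2.40 above the milk median. The difference of the Aqp7 ratio from the adipocyte median was -1.01 as deposited and 2.35 with this floor, by construction, since Aqp7 had the dimmer signals, so the order of Aqp7 among fat genes is not known. Read at the median over probe sets, glycerol handling genes had a median of -1.56. With a signal minimum of 100, 2 aquaporin probe sets passed 3-fold, against 1.64% of all probe sets. The added one was the brighter for Aqp7, bounded at 1.98-fold with signals below 100 set to 100. With no minimum there were 5, which included probe sets within background. Subtracting the chemosensory median, an alternative chosen after seeing the data, left the count at 1. No paired analysis was possible because each diet had 1 array. What Aqp3, Aqp4, Aqp8 and Aqp9 did is not measurable at these signals.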

Other observations

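The lists in this section were chosen after the values above were seen and are given as descriptions. Genes known from the capillaries of fat and muscle were lower beside Aqp1, with unequal size. Timp4, a metalloproteinase inhibitor that is also abundant in fat, had 12.5 on the GW9662 array and 531 on the control array, and 12.8 in GW9662 and 220 in control tumors at its other probe set. The retinol binding protein Rbp7 had 281 in GW9662 and 594 in control tumors, 2.12-fold lower, and the transcription factor Tcf15 had 50 in GW9662 and 185 in control tumors, at least 1.85-fold lower. Meox2, a partner of Tcf15 in capillary endothelium, had 186 in GW9662 and 272 in control tumors, and the apelin receptor Aplnr was level at its brightest probe set (3015 in GW9662 and 3095 in control tumors). Car4, or carbonic anhydrase 4, had 18.3 in GW9662 and 111 in control tumors, and 4.3 in GW9662 and 117.5 in control tumors at its other probe set. Signals of all 6 genes read were lower in GW9662 tumors, against 47.5% of the 8206 genes. By the size rule 1 was lower, Timp4, against 1.97%. Car4 and Tcf15 did not reach the rule's minimum of 300, although their deposited signals differed by more than 3-fold. The Aqp1 ratio differed from the median of the 6 by -0.19 as deposited and by -0.96 with signals below 100 set to 100.

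Of the genes of fluid secretion in gland epithelium, 4 reached a signal of 100, and their log2 ratios lay between -0.90 and -0.17. The Na-K-Cl cotransporter Slc12a2, which loads chloride into secretory cells, had 2965 on the GW9662 array and 4967 on the control array, 1.68-fold lower, and was also lower at its dimmer probe sets (397 in GW9662 and 977 in control tumors, and 352 in GW9662 and 920.3 in control tumors). The apical chloride channel Ano1 had 475 in GW9662 and 887 in control tumors, 1.87-fold lower, and the potassium channel Kcnn4 had 1258 in GW9662 and 1666 in control tumors. Atp1b1, a sodium pump subunit, had signals of 1507 in GW9662 and 1690.5 in control tumors where it was brightest, whereas other probe sets gave 1597 in GW9662 and 1365 in control tumors, and 1367.5 in GW9662 and 951 in control tumors, so that its direction depended on the probe set. All 4 genes were lower at the probe set used, against 47.5% of the 8206 genes. Their median log2 ratio was -0.57, against -0.62 for Aqp5, and it depends on the probe sets chosen. The list was drawn up with the Aqp5 ratio known. Cftr was at 23.1 in GW9662 and 10.6 in control tumors, within background. None of these differences could be tested with 1 array per diet.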
